A study of Rattus norvegicus and Heterocephalus glaber with 6 samples.

Results

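The genes described here encode enzymes of the citric acid cycle and the isocitrate dehydrogenases of liver: Cs, Idh1, Idh2, Idh3a, Idh3b, Idh3g, Ogdh, Suclg1, Suclg2 and Sucla2. They were chosen by symbol, without regard to case, and all 10 had a row in the rat tables, out of 22696 symbols across both species. In the naked mole rat tables used here, 3 of the 10 had a row. The samples were livers of rats and of naked mole rats, which live in burrows and endure oxygen shortage. Both species had been kept at 8% oxygen for 8 hours, and each gave 3 libraries of polyadenylated RNA. The labels give no strain, age or genotype, and do not say whether each library came from a separate animal, so any p-value measures the spread between these samples, which may be technical. Normoxia libraries were not analysed here, so every level below belongs to the hypoxic state and no change with oxygen was tested. Levels are FPKM, fragments counted per length of transcript and per mapped fragments of the library, a scale on which genes can be set side by side.

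The citric acid cycle oxidises acetyl units in the mitochondrial matrix and passes the electrons to the respiratory chain as NADH and reduced flavin. Citrate synthase opens the cycle, the NAD-dependent isocitrate dehydrogenase and the 2-oxoglutarate dehydrogenase complex carry its oxidative decarboxylations, and succinyl-CoA ligase makes GTP or ATP. Liver also draws citrate, malate and 2-oxoglutarate out of the cycle for lipid synthesis, gluconeogenesis and nitrogen handling. NADP-dependent isocitrate dehydrogenases stand beside the cycle: Idh1 works in the cytosol and peroxisomes and Idh2 in mitochondria, where each makes NADPH or runs in reverse.

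Summed FPKM ran from 527133 to 557187 over the rat libraries and from 17543 to 21793 over those of naked mole rat, whose tables hold 734 rows. Read depth is unknown, since FPKM carry no counts. Of 10 hepatocyte markers, 8 had a usable value in every rat library and all 8 had a mean above 100 FPKM, while the 7 skeletal or heart muscle markers were all below 1 FPKM. None of the hepatocyte markers had a row in the naked mole rat tables used here, so the tissue label could not be checked there.

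In rat liver all 10 genes had a mean of 10 FPKM or more, a level reached by 39.1% of the 9994 rows whose mean reached 1 FPKM. Their median was 55.4 FPKM, against 6.74 over those rows. Suclg1 was the highest, at 163 FPKM, and Idh3a the lowest, at 10.05. From the top, the order of the means was Suclg1, Suclg2, Idh1, Idh3b, Sucla2, Ogdh, Idh2, Idh3g, Cs and Idh3a. The ranges of neighbours in this order overlapped for Suclg2 and Idh1, for Idh1 and Idh3b, and for Sucla2 and Ogdh. The other 6 neighbouring pairs did not overlap and kept their order in 3 of 3 rats. With 3 values against 3 an exact two-sided permutation test cannot give a p below 0.1, so order and overlap are given as descriptions.

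**Figure D1:**
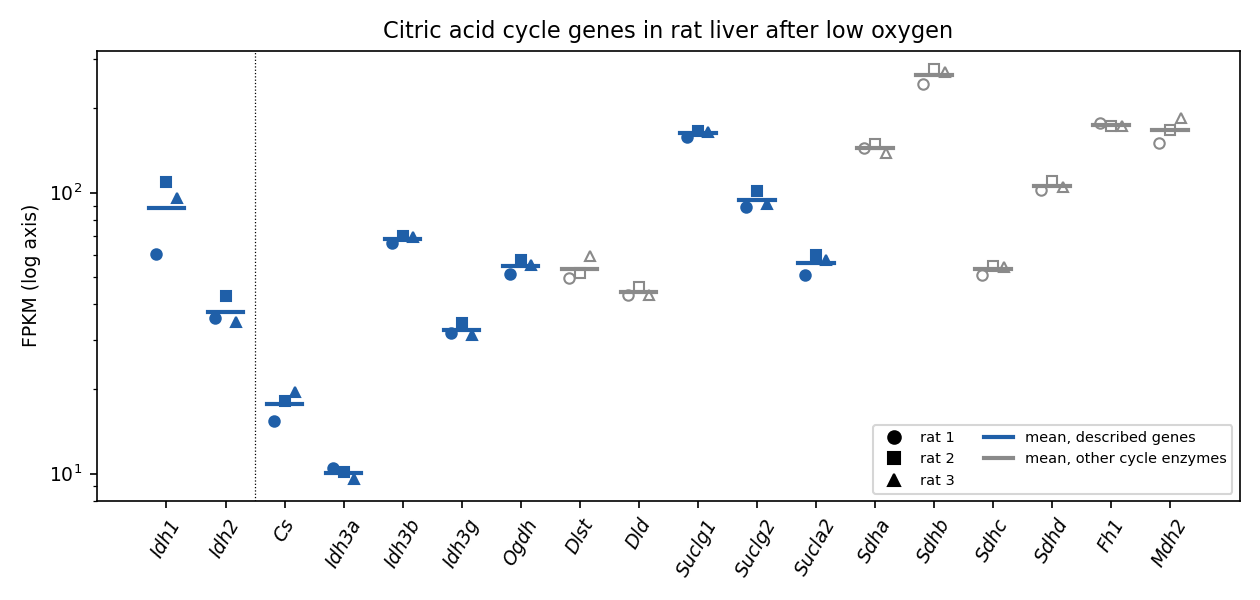
FPKM on a log axis for the isocitrate dehydrogenases outside the cycle (left of the dotted line) and for genes of the cycle in reaction order, with 1 point per rat library and a bar at the mean of 3. Idh3a, at 10.05 FPKM, and Cs, at 17.7 FPKM, lie lowest, and the points of Idh1 lie farthest apart.

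Promoter windows are shown for 3 of the genes. Idh1 varied most in level between rats, and Ogdh and Idh3g are the members whose windows hold ACGTG. That motif is a form of the core of the element bound by hypoxia-inducible factors. Each window runs from 250 bases before to 50 bases after the start that the RefSeq table uses, 5′ to 3′ on the gene's strand, and comes from RefSeq on GRCr8, which need not be the build behind the tables. The Idh1 window is chr9:74049425-74049724 on the minus strand, that of Ogdh chr14:85363781-85364080 on the plus strand, and that of Idh3g chrX:156675433-156675732 on the minus strand. The starts used for Idh1 and Ogdh lie inside the bounds that RefSeq gives for the gene, so they are not its outermost start. Capitals mark ACGTG on either strand, and other forms of the core were not searched or marked. In Ogdh the matches on both strands overlap in CACGTG, which is also the core of the E-box.
Idh1: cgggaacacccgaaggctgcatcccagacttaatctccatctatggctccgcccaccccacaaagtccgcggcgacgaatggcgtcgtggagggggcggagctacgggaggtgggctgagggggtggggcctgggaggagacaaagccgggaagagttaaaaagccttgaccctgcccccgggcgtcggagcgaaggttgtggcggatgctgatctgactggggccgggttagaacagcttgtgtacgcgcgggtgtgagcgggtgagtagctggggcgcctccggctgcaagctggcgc
Ogdh: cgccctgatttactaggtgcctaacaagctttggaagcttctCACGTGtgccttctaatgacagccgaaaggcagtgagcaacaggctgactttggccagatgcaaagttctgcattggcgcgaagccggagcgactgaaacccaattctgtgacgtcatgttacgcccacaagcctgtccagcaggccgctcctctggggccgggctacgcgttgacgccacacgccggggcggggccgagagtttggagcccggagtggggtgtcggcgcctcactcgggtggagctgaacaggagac
Idh3g: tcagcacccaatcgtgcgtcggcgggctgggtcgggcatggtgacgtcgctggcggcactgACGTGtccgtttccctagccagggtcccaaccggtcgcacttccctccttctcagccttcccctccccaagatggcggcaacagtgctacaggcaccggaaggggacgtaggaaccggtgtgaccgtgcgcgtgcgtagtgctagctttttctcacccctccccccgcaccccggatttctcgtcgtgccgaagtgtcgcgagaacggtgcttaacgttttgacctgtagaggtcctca
Of the 10 genes, 9 had a window, and 2 of the 9 held the motif, against 19.3% of 33469 windows of 300 bases. The Idh3g window shares 275 bases with that of its neighbour Ssr4, which is transcribed the other way. A match is a description of these letters and not a binding site.

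Citrate synthase, which joins acetyl-CoA to oxaloacetate, was among the lowest of the set. Cs stood at 15.4, 18.2 and 19.6 FPKM in rats 1, 2 and 3, or 17.7 ± 2.14 (SD, n = 3). Rat 1 was the lowest library, and all 3 lay below every value of the next higher gene, Idh3g. Suclg1, the highest of the genes, exceeded Cs by 3.21 ± 0.15 on the log2 scale of ratios within a library (SD, n = 3). The rat annotation names a further copy, Cs-ps1, and reads could be split with it. The Cs row lies on chromosome 7 from 1626180 to 1652197 in the coordinates of the deposited tables.

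The NAD-dependent isocitrate dehydrogenase is built from a catalytic alpha subunit, Idh3a, with Idh3b and Idh3g as beta and gamma subunits. The 3 transcripts stood at unlike levels. Idh3a was at 10.5, 10.1 and 9.56 FPKM in rats 1, 2 and 3 (10.05 ± 0.464, SD, n = 3), on chromosome 8 from 58135411 to 58156019. Idh3g was at 31.7, 34.3 and 31.2 FPKM (32.4 ± 1.69), on chromosome X from 159701344 to 159710254. Idh3b was at 66.4, 69.9 and 69.6 FPKM (68.7 ± 1.94), on chromosome 3 from 117892613 to 117897633. No 2 of these subunits overlapped in any library, and each varied little between rats.

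Within a library, Idh3b was 6.34, 6.92 and 7.28 times Idh3a, and Idh3g was 3.03, 3.40 and 3.26 times Idh3a. On the log2 scale the ratio of Idh3b to Idh3a was 2.77 ± 0.10 and that of Idh3g to Idh3a 1.69 ± 0.09 (SD, n = 3). Idh3b exceeded Idh3g by 1.08 ± 0.07 on that scale. The Idh3b row overlaps that of Nol5a by 1 base, at 8.75 ± 1.06 FPKM, and the annotation names a pseudogene, Idh3b-ps1, that could share its reads. The Idh3g row ends 175 bases from that of Ssr4, a subunit of the complex that assists protein entry into the endoplasmic reticulum, which stood at 63.1 ± 3.16 FPKM. The part of such copies and neighbours in the levels was not tested.

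Idh1 and Idh2 supply NADPH on either side of the mitochondrial membrane. Idh1, on chromosome 9 from 63769400 to 63790622, was at 60.2, 109 and 95.9 FPKM in rats 1, 2 and 3 (88.4 ± 25.2, SD, n = 3). Idh2, on chromosome 1 from 135876051 to 135895373, was at 35.7, 42.7 and 34.6 FPKM (37.7 ± 4.39). Idh1 was above Idh2 in 3 of 3 rats, and the libraries of the 2 genes did not overlap. The ratio was 1.69 in rat 1, 2.55 in rat 2 and 2.77 in rat 3, a mean log2 ratio of 1.19 ± 0.38. Rat 1 thus had both the lowest Idh1 level and the lowest ratio. Without rat 1 the Idh1 mean was 102 FPKM, above that of Suclg2 without the same library, at 96.4.

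Idh1 was the most variable of the genes. Its highest library was 1.81 times its lowest, a ratio exceeded by 5.42% of the 3908 rat rows of at least 10 FPKM, and 1.66 times after scaling the rats to each other, exceeded by 7.75%. Erythroid markers were lowest in the same library: the summed level of the 3 measured was 391, 2333 and 2631 FPKM in rats 1, 2 and 3, and each of the 3 was lowest in rat 1. The summed Kupffer cell or macrophage markers were 194, 206 and 263 FPKM, with 2 of 8, Marco and Adgre1, listed at 0 in all rats, and the 4 measured cholangiocyte markers, at 11.6, 12.8 and 16.6 in sum, were also each lowest in rat 1. The 5 measured T or NK markers also rose in sum, at 1.49, 1.59 and 2.11 FPKM. All 5 had a mean below 1 FPKM, and 2 of them were lowest in rat 1. The sums of the endothelial and of the stellate or fibroblast lists did not follow this order. The 5 measured endothelial markers summed to 62.4, 56.7 and 55.8 FPKM, with none lowest in rat 1. The 6 measured stellate or fibroblast markers summed to 33.8, 25.1 and 34.5, though 3 of the 6 were lowest in rat 1. The summed hepatocyte markers were 34968, 38286 and 34771 FPKM. The part of blood or of other cells in the Idh1 difference was not tested, and in bulk liver fewer cells of a type and less RNA per cell cannot be told apart.

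The 2-oxoglutarate dehydrogenase complex consists of Ogdh, the decarboxylating component, with Dlst, its succinyltransferase, and Dld, a dehydrogenase shared with other complexes. Ogdh was at 51.5, 57.6 and 55.2 FPKM in rats 1, 2 and 3 (54.8 ± 3.09, SD, n = 3), on chromosome 14 from 87022993 to 87090768. Dlst was at 53.7 ± 5.02 FPKM and Dld at 44.1 ± 1.81. In contrast to the subunits of isocitrate dehydrogenase, the transcripts of this complex lay near one another: the log2 ratio of Ogdh to Dlst was 0.03 ± 0.13, with Ogdh higher in 2 of 3 rats, and that of Ogdh to Dld 0.31 ± 0.05, with Ogdh higher in 3 of 3. The difference between the complexes was not tested. Of the paralogs, Ogdhl was at 0.185 ± 0.0611 FPKM and Dhtkd1, of lysine and tryptophan breakdown, at 64.9 ± 11.9, from a short row on chromosome 17 between 83461478 and 83463086.

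Succinyl-CoA ligase pairs an alpha subunit, Suclg1, with either of a pair of beta subunits: Suclg2 for the GTP-forming enzyme or Sucla2 for the ATP-forming one. Suclg1 was at 157, 166 and 164 FPKM in rats 1, 2 and 3 (163 ± 4.47, SD, n = 3), on chromosome 4 from 106572139 to 106601495. Suclg2 was at 88.6, 102 and 91.2 FPKM (93.8 ± 6.93), on the same chromosome from 129995855 to 130276182. Sucla2 was at 51.1, 59.8 and 57.5 FPKM (56.1 ± 4.52), on chromosome 15 from 54214261 to 54267830. The GTP-type beta subunit was thus the higher of the pair in each rat, with no overlap.

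The ratio of Suclg2 to Sucla2 was 1.74, 1.70 and 1.59 in the 3 libraries, or 0.74 ± 0.07 on the log2 scale. Sucla2 made up 36.6%, 37.0% and 38.7% of the summed beta transcripts. That sum was 140, 161 and 149 FPKM, close to the level of the shared alpha subunit: Suclg1 was 1.13, 1.03 and 1.10 times the sum, a log2 ratio of 0.12 ± 0.07. Suclg1 was above the sum in 3 of 3 rats, though by at most 1.13 times.

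**Figure D2:**
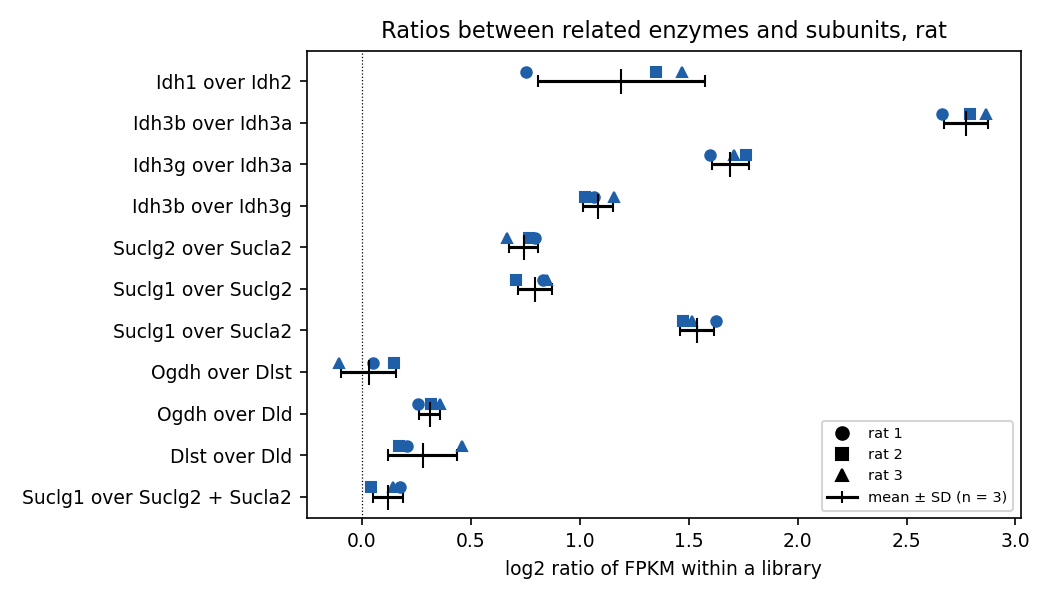
Log2 ratios of FPKM within each rat library for related enzymes and subunits, with 1 symbol per library and the mean ± SD of 3. The ratios of Idh3b and Idh3g to Idh3a lie far from 0, those of Ogdh to Dlst and of Suclg1 to the summed beta subunits near 0, and that of Idh1 to Idh2 is the most spread.

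Apart from Idh1, the genes differed little between rats. The ratio of the highest to the lowest library ran from 1.05 for Idh3b and Suclg1 to 1.27 for Cs, with 1.81 for Idh1 and a median of 1.13. The median over the 3908 rows of at least 10 FPKM was 1.21, and 7 of the 10 genes lay below it; Idh2, Cs and Idh1 lay above. Rat 2 was the highest library for 8 of the 10 and for 49.3% of those rows. Rat 1 was the lowest for 7 of the 10 and for 48.5% of the rows. After scaling the rats by their median ratio, rat 2 was highest for 5 of the 10 and 35.5% of the rows. The median ratio then fell to 1.08 for the 10 genes and 1.19 for the rows, and 7 of the 10 were again below.

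**Figure D3:**
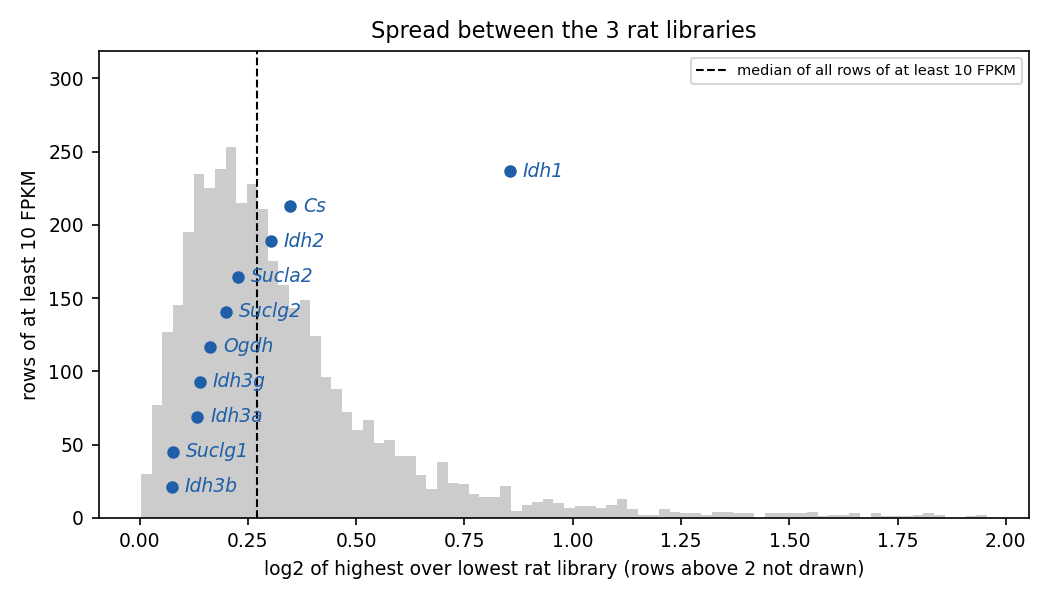
Histogram of the log2 ratio of the highest to the lowest rat library over rows of at least 10 FPKM, with the median as a dashed line and each gene as a blue point, its height serving only to separate the names. Idh1 (1.81 times) stands in the right tail, and 7 of the 10 points lie left of the median.

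The other enzymes of the cycle lay at similar or higher levels. All 9 were at 10 FPKM or more and 5 of them above 100, with a median of 106 FPKM, against 1 of 10 above 100 and a median of 55.4 for the genes above. The highest was Sdhb, the iron-sulphur subunit of succinate dehydrogenase, at 263 ± 16.4 FPKM (SD, n = 3), and the lowest Dld. Among its partner subunits, Sdha was at 144 ± 4.99, Sdhd at 106 ± 3.95 and Sdhc at 53.4 ± 1.99 FPKM. Fumarase (Fh1) was at 174 ± 1.92 and malate dehydrogenase (Mdh2) at 167 ± 17.0.

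Genes that feed the cycle spanned a wide range. Of 6 measured genes of pyruvate entry, 4 reached 10 FPKM. Pyruvate carboxylase (Pc), which makes oxaloacetate, had the highest mean, 144 ± 22.4 FPKM, but exceeded Pdhb, a catalytic subunit of pyruvate dehydrogenase at 141 ± 7.91, in rat 2 alone. Pdhx, a structural component of pyruvate dehydrogenase, was lowest at 3.13 ± 0.347. Of 7 kinases and phosphatases that switch pyruvate dehydrogenase off and on, 3 reached 10 FPKM. Pdk2 was highest at 95.1 ± 20.7 FPKM, and Pdk1, a kinase known as a target of hypoxia-inducible factors, was at 42.6, 40.9 and 33.7 FPKM in rats 1, 2 and 3. Pdk3 was lowest at 0.313 ± 0.0553. Of 8 genes that fill or drain the cycle, 7 reached 10 FPKM, from 5.71 ± 1.19 for Pck2 to 802 ± 344 for Pck1, of gluconeogenesis, which in rat 2 was below Glud1 (mean 486 ± 78.6).

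The cytosolic partners of the cycle were also abundant, with 7 of 8 at 10 FPKM or more. Got1, an aspartate aminotransferase, led at 504 ± 74.6 FPKM and malic enzyme Me1, which makes NADPH, was lowest at 8.21 ± 2.98. Cytosolic aconitase (Aco1), which supplies the isocitrate that Idh1 uses, was at 53.7 ± 2.96 FPKM. Of 6 measured genes of other NADPH sources, 3 reached 10 FPKM. Mthfd1, of folate metabolism, had the highest mean, 47.1 ± 12.8 FPKM, though H6pd, at 44.8 ± 5.26, was above it in rat 1, and Me3 was lowest at 3.36 ± 0.254. The mean of Idh1, at 88.4 FPKM, was above all 6, and that of Idh2, at 37.7, above 4 of them. Isocitrate dehydrogenases can reduce 2-oxoglutarate to 2-hydroxyglutarate, and of the genes that remove it Adhfe1 was highest at 126 ± 18.5 FPKM and D2hgdh stood at 10.7 ± 3.40.

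IDH3G, IDH1 and SUCLA2 could be set beside naked mole rat, and the levels of the other 7 genes there were not analysed here. The IDH3G row, on scaffold59 from 831257 to 837495, spans 6238 bp against 8910 bp in rat, 0.70 times the length. The IDH1 row, on scaffold301 from 133207 to 403721, spans 270514 bp against 21222 bp in rat. The SUCLA2 row, on scaffold56 from 7564 to 8224, spans 660 bp against 53569 bp. Only IDH3G thus has rows of comparable extent, taken as within 0.5 to 2 times.

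IDH3G was higher in naked mole rat than in rat. In FPKM as deposited it stood at 68.3, 65.3 and 85.6 in naked mole rats 1, 2 and 3 (73.1 ± 11.0, SD, n = 3), against 31.2 to 34.3 in rat. It ranked 21 of the 734 naked mole rat rows by mean, and no other row overlapped it. After scaling the libraries to one another it was at 70.2, 73.5 and 89.7 scaled FPKM in the naked mole rats (77.8 ± 10.5) and at 31.9, 29.5 and 29.1 in rat (30.2 ± 1.51). The species did not overlap, and naked mole rat 3 was the highest library. The difference was 1.33 ± 0.13 (SE) on log2(scaled FPKM + 1), or 2.52-fold (limma, adjusted p = 3.64e-05, n = 3 each).

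Most symbols differed between the species in this comparison, so a call by itself sets IDH3G little apart. Of the 288 symbols tested, 73.6% were called: 32.6% had the higher level in naked mole rat, and 41.0% in rat. Among the 47 of comparable span, 34.0% were called with naked mole rat above rat, and 23.4% with rat above naked mole rat. The libraries of the species did not overlap for 89.6% of the 288. The difference of IDH3G was exceeded by 82 of the other symbols tested, and by 12 of those with comparable span. Some of these 12 were listed at 0 in all rat libraries and passed the filter on low values through naked mole rat alone. The direction of such calls was fixed, and they count in the shares given above for naked mole rat. The naked mole rat level of IDH3G was exceeded by 13 of the symbols tested and by 3 of those with comparable span.

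The size of the IDH3G difference rests on how the libraries are scaled. The median log2 difference over all tested symbols was -0.40, and IDH3G lay 1.74 above it, but 0.97 above the median of 0.36 for symbols of comparable span. Scaling each library to the same sum over the shared symbols moved the median to 0.77 and the IDH3G difference to 2.35, or 5.11-fold, and quantile normalization gave 2.21, or 4.62-fold. Scale factors from symbols of comparable span alone gave 0.98 (limma, adjusted p = 0.000589), just below the limit of 1 set for a call. Calls split 94 to 118 toward naked mole rat and rat here, of 288 symbols tested. Under the scaling to equal sums they split 169 to 108, of 358 tested, as more symbols passed the filter. The median of 0.77 is also over these 358, so more than the scale differs between the settings. Species, genome, annotation and alignment cannot be told apart in this difference.

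**Figure D4:**
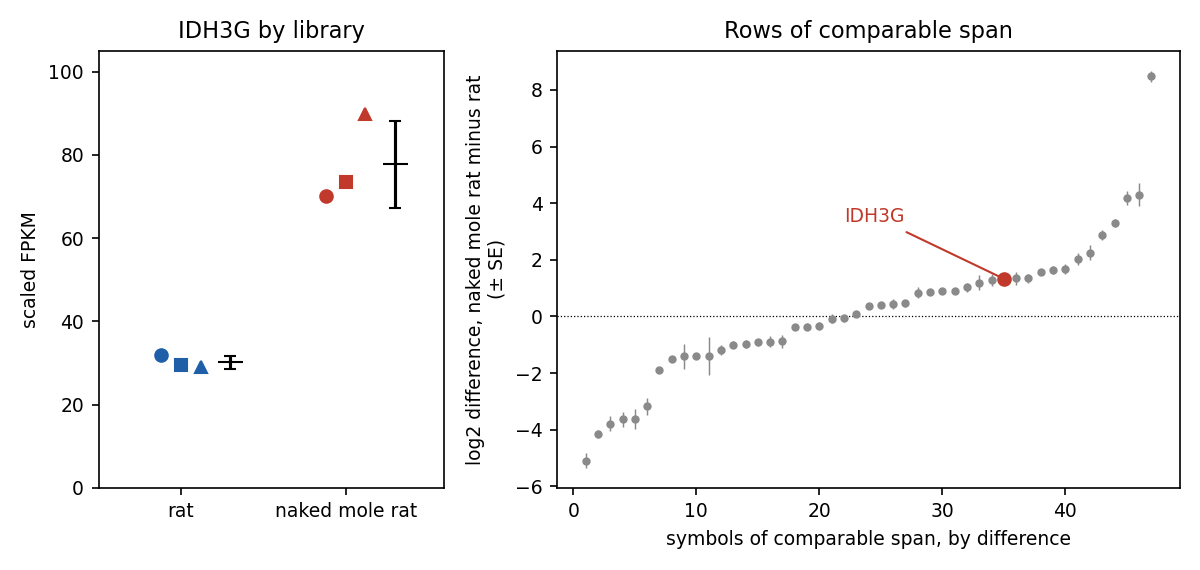
Left, scaled FPKM of IDH3G with 1 point per library and the mean ± SD (n = 3) in black; the naked mole rat libraries (70.2 to 89.7) lie above those of rat (29.1 to 31.9). Right, log2 difference between the species with its SE for the 47 tested symbols of comparable span, in order, with IDH3G at 1.33 and 12 symbols above it.

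IDH1 and SUCLA2 were listed at 0 FPKM in all 3 naked mole rat libraries. They passed the filter on low values through rat alone, so the direction of their test was fixed and it is not given. In rat, IDH1 was at 60.6, 93.5 and 89.5 and SUCLA2 at 51.4, 51.3 and 53.7 scaled FPKM. A value of 0 in every naked mole rat library was found for 32 of the 288 symbols, or 11.1%, and all 32 were called higher in rat, the direction that the filter fixes. GLUD1, a glutamate dehydrogenase that feeds 2-oxoglutarate into the cycle, was among them, with 412 to 494 scaled FPKM in rat. The naked mole rat rows of IDH1, SUCLA2 and GLUD1 are 12.7, 0.0123 and 3.06 times as long as those of rat. Some of the 32 symbols had rows of comparable span. Only the listing is given for these genes, with no fold. The part of the row's extent in the listing was not tested.

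Over the 6 libraries, the tested symbols nearest to IDH3G by Euclidean distance in log2(scaled FPKM + 1) were IFITM1, COPG and GDA, at distances of 0.52, 0.80 and 1.61. The scaled FPKM of IFITM1 were 76.1 ± 26.7 in the naked mole rats, against 28.3 ± 1.82 in the rats (SD, n = 3 each). COPG was at 80.4 ± 9.32 and 24.9 ± 4.72, and GDA at 72.7 ± 18.8 and 16.9 ± 2.64. All 3 had rows of comparable span. The distance measures likeness of level in these libraries, which fall into 2 species, and nothing more.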

How the data were processed

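Liver polyadenylated RNA of 3 rat and 3 naked mole rat samples was analysed, grouped by the labels. The authors deposited 1 gene table per sample in FPKM, per the file headers, with the columns of Cufflinks output. Per the submitters' processing notes the tools included Cufflinks 2.1.1, TopHat2 2.0.9, Picard 1.137 and Bowtie2 2.1.0. For builds and annotations the sources used here give nothing. The deposited confidence bounds were not used: 14 of 30 rat values of the genes lay outside their own bounds. Albumin has the status HIDATA in 2 rats and was left out. List genes were matched by symbol, or by an older symbol in the RefSeq table of GRCr8.

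Levels and within-library ratios used FPKM as deposited. For the species comparison, symbols were matched without regard to case (388 shared), rows of a symbol summed, and libraries divided by a median-ratio factor (0.889 to 1.17) taken from shared symbols that were above 0 throughout. Symbols of at least 1 scaled FPKM in 3 libraries (2 where a library was left out) were log-transformed as log2(scaled FPKM + 1). They were tested in R 4.3.3 by limma 3.58.1, with its trend option and Benjamini-Hochberg adjustment over 288 symbols; 259 had an unadjusted p under 0.05. A call needs a log2 difference of 1 or more together with an adjusted p below 0.05; this scale understates differences of low genes. The step was also run on simulated data in which a minority of symbols differed, in directions drawn at random. That run does not cover data such as these, where most symbols were called. The members and gene lists were chosen with earlier results of these data known. The rule for named genes took all members, the highest and lowest gene of each list, list genes with rows in both species, the 3 symbols nearest to IDH3G and rows overlapping a member. Other list genes, and the neighbour Ssr4, were chosen after their values were seen. Some list genes are counted with their list but not reported by name here.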

Additional observations from a re-analysis of the deposited data

How the results depend on the processing

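IDH3G was higher in naked mole rat under all 18 alternatives tried and passed both limits of a call in 17. With scale factors from symbols of comparable span its log2 difference was 0.98. Not all alternatives could move the difference. Those that changed only the filter, the trend option, the block or the symbols fitted kept the same scaled values. They gave 1.33 by construction, so the count of 17 is no measure of support. Leaving out each library in turn gave 1.23 to 1.40, with 94 to 104 symbols called higher in naked mole rat and 117 to 124 higher in rat. Calls toward naked mole rat numbered 169 with libraries scaled to equal sums, a setting that tests 358 symbols. They numbered 38 with a filter of at least 1 in all 6 libraries (49 toward rat). Among symbols of comparable span alone they numbered 16 (11 toward rat). These last 2 settings test fewer symbols (151 and 47), and IDH1 and SUCLA2 are not in them. With the replicate number as a block the IDH3G difference was 1.33 (limma, adjusted p = 0.000305), and 94 and 118 symbols were called, as without it. The numbers showed no sign of pairing the samples. Deviations of same-numbered libraries correlated at -0.036, -0.086 and -0.043 across genes, and 0 of 6 samples correlated best with their own number. Such correlations between species cannot exclude a batch shared by number. In rat, the order of the 10 means was the same under 3 scalings of the libraries. Each applies a single factor to a whole library, which cannot change the order within it, so this sameness was nearly fixed in advance. Leaving out rat 1 put Idh1 above Suclg2 under each scaling. Rescaling each rat library to a larger common sum raised each mean by construction (Idh1 to 164). Depth is unknown, so counting error could not be given.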
